A study of Rattus norvegicus with 18 samples.

Results

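The effect of a high-fat diet (HFD) that 1, 2 and 4 months of feeding had in common was read from rat bone marrow mesenchymal stem cells (BMSC) by setting all 9 HFD arrays against all 9 normal-diet (ND) arrays, which are all 18 arrays of the series. Feeding time was a block in the fit, so that a single diet difference was estimated for the 3 times, and the changes described are those with the same direction at each of them. The groups were HFD for 1 month, ND for 1 month, HFD for 2 months, ND for 2 months, HFD for 4 months and ND for 4 months, with 3 arrays each. All rats were Sprague-Dawley and 6 weeks of age at the start. HFD held 60% basal feed, 20% lard, 10% sucrose and 10% powdered egg yolk, and ND was 100% basal feed. No sex, transgene or pooling is named in the labels. Total RNA came from plated whole marrow after growth in standard culture medium, at passage 3 by the sample labels and passage 1 by the series text, and was measured on Affymetrix rat expression arrays.

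BMSC are the adherent stromal cells of the marrow. In culture they divide, secrete collagen and other matrix, make factors for blood vessels and blood-forming cells, and can be driven to form bone or fat cells. Plated whole marrow also carries macrophages along, which adhere and survive passaging. A difference between diets that lasts in culture is thus read after the cells have left the animal, and on bulk RNA fewer cells of a type and less RNA per cell cannot be told apart.

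The stromal marker Thy1 read 11.71 to 12.12 log2 units on HFD arrays and 11.73 to 12.13 on ND arrays. Of 18 tested stromal surface and niche markers, 12 had a negative diet difference over all times and 6 a positive one. Their median was -0.22, against -0.04 for all tested genes, and 0 were called. Relative to its average over arrays, the list mean under HFD was 0.055, -0.393 and -0.042 at 1, 2 and 4 months. Under ND it was 0.158, 0.179 and 0.043. Macrophage markers varied within both diets, with the lysosomal protein Cd68 between 5.21 and 10.29 on HFD arrays and between 4.53 and 10.78 on ND arrays. The mean of the macrophage list, relative to its average over arrays, lay between -2.65 and 1.72 under HFD and between -3.65 and 2.00 under ND. In the deposited table the column of ND 1-month replicate 1 ends 1343 rows early, and it was moved down by as many. It lacks a value for 1066 tested probe sets, and genes among these rest on 17 arrays. The arrays also differed by diet in the spread of their values. The interquartile range of log2 intensity was 3.073 ± 0.037 on HFD arrays and 3.184 ± 0.049 on ND arrays (SD, n = 9 each; exact permutation test within feeding times, two-sided, p = 0.00025). HFD ranged from 3.012 to 3.115 and ND from 3.110 to 3.247, so only the edges of the diets overlap.

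**Figure D1:**
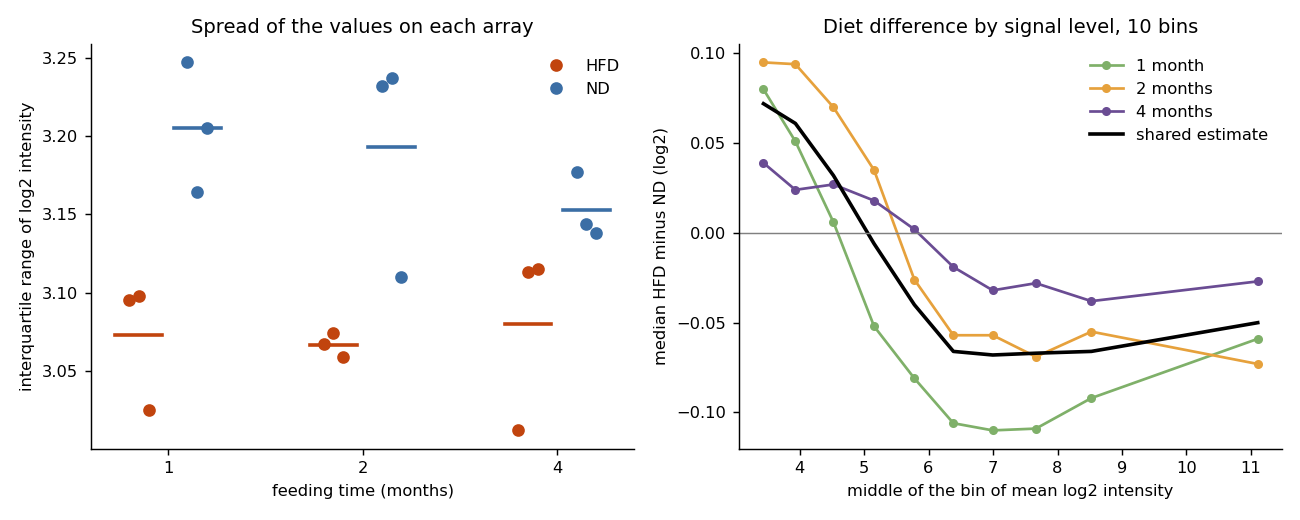
The left panel plots the interquartile range of log2 intensity on each array (points) and its group mean (bars) against feeding time, HFD left of ND, and the HFD mean of 3.073 over 9 arrays lies below the ND mean of 3.184. The right panel plots the median HFD minus ND difference over 10 bins of mean signal, at each time and for the shared estimate (black), which is 0.072 in the dimmest bin and negative in the 7 brightest.

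Over the 3 times together, 66 genes rose and 100 fell among 11446, at a Benjamini-Hochberg adjusted p under 0.05 in limma over all tested probe sets. A gene stands here by its brightest tested probe set. The called genes are 1.45% of all tested, 0.577% for rises and 0.874% for falls. On the level of probe sets, 381 of 21729 were called, which is 1.75% (141 higher, 0.649%, and 240 lower, 1.1%), and all 381 had 1 direction at the 3 times. Among all tested genes, called or not, 38.8% had the same direction at the 3 times, 13.7% higher in HFD and 25.1% lower. The changes were small. The median absolute log2 difference of the called genes was 0.35. A 2-fold change was passed by 2 rises, Prss35 and Enpp1, and 2 falls, Vegfd and Cwc25. Beyond these, Serpinb6b rose by at least 1.5-fold and Pdxdc1, Zfp423, Zbtb14 and N4bp1 fell by as much. The arrays of the 2 diets did not overlap at any of the 3 times for 56 of the 166 called genes, and for 81 of all tested genes (0.708%). Time by time, they were apart for 16.9% of all tested genes at 1 month, 25.5% at 2 months and 8.04% at 4 months. The called genes were selected on these same arrays, so their lack of overlap and their 1 direction are not separate evidence.

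Rises and falls were called on probe sets of different brightness, which depends on the probes as well as on the RNA. The 66 genes that rose had a median signal of 4.62 log2 units and 39 of them lay below 5, whereas the 100 that fell had a median of 7.26 and 4 lay below 5. The median of all tested genes was 6.88. Over all probe sets the median diet difference was 0.07 in the dimmest bin and -0.07 in the 7th of the 10 bins, as the plot of array spread shows, and its part in the calls was not tested gene by gene. The rises made up 37% of the called probe sets with the deposited values, 52.8% of 163 after quantile normalization, 47.3% of 188 after cyclic loess and 72.3% of 285 with arrays centred on their medians. With the interquartile range of each array as a covariate 0 were called (limma, lowest adjusted p = 0.346, 2297 at an unadjusted p under 0.05), and diet and array spread cannot be told apart in that fit. Of the 166 called genes, 57 were called again after quantile normalization, 38 that rose and 19 that fell, and all 166 kept their sign. Leaving out 1 array at a time gave 84 to 963 called probe sets, the lowest without HFD 1-month replicate 3 and the highest without ND 4-month replicate 2. A group of 22 genes was called in all 18 such fits. Of these, 11 rises and 8 falls were also called under quantile normalization, cyclic loess and median centring. The rises were Palm3, Cyth1, Zic2, Plod2, Tff3, Kcnk3, Ngb, Sstr1, Tbx2, Adgrd1 and Pnpla1, and the falls Zbtb14, Khsrp, Etv6, Rcbtb2, Srrm2, Stk35, Ncbp2 and Ccar1. Every other called gene lost its call in at least 1 of these fits. After averaging all tested probe sets per gene, 89 of the 166 genes were called again, and 11 of the 61 that have more than 1 tested probe set. Among the genes just named, Sstr1, Tbx2, Khsrp, Rcbtb2, Srrm2, Stk35, Ncbp2 and Ccar1 lost their call in that fit.

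The promoters of the transcription factor Zic2 and of the vascular growth factors Vegfc and Vegfd from RefSeq (GRCr8), 250 bases before to 50 after the listed transcript start, are shown because Zic2 was called in every fit with 1 array left out, and because the related Vegfc and Vegfd fell together. They lie at chrX:33739843-33740142 on the minus strand for Vegfd, chr16:44560838-44561137 on the minus strand for Vegfc and chr15:105983092-105983391 on the plus strand for Zic2. Capitals mark the GC box letters GGGCGG, the CCAAT motif and the TATA letters TATAAA, each searched on both strands and counted without overlap. In Zic2, capital runs longer than 6 letters hold overlapping copies.
Vegfd: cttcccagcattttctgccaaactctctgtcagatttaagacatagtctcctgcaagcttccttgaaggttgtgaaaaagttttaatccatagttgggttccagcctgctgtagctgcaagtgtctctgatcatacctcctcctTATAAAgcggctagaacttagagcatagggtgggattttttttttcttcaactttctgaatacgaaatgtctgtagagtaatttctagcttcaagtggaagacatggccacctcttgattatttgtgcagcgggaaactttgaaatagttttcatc
Vegfc: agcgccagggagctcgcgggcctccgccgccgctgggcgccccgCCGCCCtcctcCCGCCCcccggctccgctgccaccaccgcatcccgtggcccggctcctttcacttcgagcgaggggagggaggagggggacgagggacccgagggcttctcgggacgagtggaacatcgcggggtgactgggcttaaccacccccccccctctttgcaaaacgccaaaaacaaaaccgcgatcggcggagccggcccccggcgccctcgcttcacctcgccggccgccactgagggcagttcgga
Zic2: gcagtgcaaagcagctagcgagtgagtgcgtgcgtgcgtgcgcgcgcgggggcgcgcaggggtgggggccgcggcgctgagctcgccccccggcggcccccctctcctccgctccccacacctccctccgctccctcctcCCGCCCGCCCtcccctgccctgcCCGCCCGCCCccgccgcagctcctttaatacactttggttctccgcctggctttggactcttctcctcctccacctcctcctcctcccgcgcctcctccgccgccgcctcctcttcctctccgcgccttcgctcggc
The Vegfd window had a GC content of 40.7% and 1 TATAAA, against 73% in Vegfc and 74.3% in Zic2, each with GGGCGG and no TATAAA. Over windows of the same length, GGGCGG stood in 60% of 55 genes that rose, 65.5% of 84 that fell and 62.5% of all 9502 tested genes with a window. CCAAT was found in 27.3%, 38.1% and 37.7% of the same sets and TATAAA in 10.9%, 9.52% and 6.84%. A letter match says nothing about binding.

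Zic2, a zinc finger transcription factor of neural development, rose at all 3 times. It read 5.85, 5.66 and 5.95 log2 units on the HFD arrays at 1 month, against 5.17, 5.17 and 5.30 on the ND arrays. At 2 months the values were 5.83, 5.73 and 5.98 under HFD and 5.39, 5.40 and 5.58 under ND. At 4 months they were 5.82, 5.58 and 5.73 under HFD and 5.33, 5.39 and 5.37 under ND. Every HFD array was at or above every ND array of the study, and no time showed overlap. The shared log2 difference was 0.45 ± 0.06 (SE, n = 9 per diet, limma adjusted p = 0.00575), and it was 0.48 after quantile normalization (adjusted p = 0.00952). Tbx2, a T-box repressor of limb and heart development, rose by a log2 difference of 0.38 ± 0.07 (adjusted p = 0.0172) with differences of 0.41, 0.40 and 0.33 at 1, 2 and 4 months. Its arrays overlapped at 4 months, where HFD replicate 3 read 4.53 and ND replicate 3 read 4.60. Averaged with its 2 other probe sets, Tbx2 stood at 0.24 and was not called (adjusted p = 0.0647).

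The largest rises were in genes that vary strongly between cultures. Prss35, a secreted protein of the serine protease family (chr8:96594460-96610992 in GRCr8), read 9.94, 7.37 and 9.46 under HFD at 1 month, against 7.40, 8.70 and 7.51 under ND. At 2 months it read 10.52, 10.63 and 9.13 under HFD and 5.39, 8.55 and 7.41 under ND, and at 4 months 6.89, 6.91 and 6.27 under HFD and 5.67, 4.83 and 4.24 under ND. The diets overlapped at 1 month and were apart at 2 and 4 months. Its shared log2 difference was 1.94 ± 0.46 (SE, limma adjusted p = 0.0444), and it was called in 3 of the 18 fits with 1 array left out and missed the threshold after quantile normalization (adjusted p = 0.0528).

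Enpp1, the cell surface enzyme that makes pyrophosphate, an inhibitor of mineral formation, from ATP, rose by a log2 difference of 1.27 ± 0.29 (SE, limma adjusted p = 0.0372). It read 9.98, 8.66 and 9.19 under HFD at 1 month, against 8.85, 8.27 and 9.17 under ND. The 2-month arrays read 11.21, 11.64 and 10.64 under HFD and 8.5, 9.23 and 8.71 under ND. The values at 4 months were 9.56, 9.69 and 10.25 under HFD and 9.37, 9.10 and 8.16 under ND. The diets overlapped at 1 month, and the widest gap was at 2 months, where every HFD array was above every ND array of any time. Enpp1 was called in 7 of the 18 fits with 1 array left out. Serpinb6b, an intracellular serine protease inhibitor, rose by 0.88 ± 0.18 on the log2 scale (adjusted p = 0.0254), with 0.58, 1.52 and 0.54 at 1, 2 and 4 months. It was called in 17 of those 18 fits.

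Plod2, the lysyl hydroxylase that prepares collagen ends for stable crosslinks, rose at all 3 times. It read 11.28, 11.53 and 11.27 under HFD at 1 month and 11.08, 10.82 and 11.26 under ND. The 2-month values were 11.59, 11.64 and 11.55 under HFD and 10.78, 11.09 and 10.93 under ND. At 4 months the values were 11.40, 11.58 and 11.68 under HFD and 11.31, 11.15 and 11.31 under ND. No time showed overlap, although the nearest arrays at 1 month read 11.27 under HFD and 11.26 under ND, and the shared log2 difference was 0.42 ± 0.08 (SE, limma adjusted p = 0.0211). Kcnk3, an acid-sensitive background potassium channel, rose by 0.41 ± 0.07 (adjusted p = 0.011), with 0.51, 0.31 and 0.41 at 1, 2 and 4 months and no overlap at any time. Cyth1, an exchange factor for Arf GTPases, rose by 0.47 ± 0.09 (adjusted p = 0.018) and overlapped at 2 months alone.

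Other rises came from probe sets with a low signal. The Notch receptor Notch4 rose by 0.35 ± 0.08 on the log2 scale (limma adjusted p = 0.0377), at 0.34, 0.38 and 0.32 over the times, with no overlap, from a mean level of 4.2 log2 units. One of its 2 other probe sets had the opposite sign, and with its probe sets averaged its log2 difference was 0.17 (adjusted p = 0.132). Heyl, a transcriptional repressor that Notch signalling induces, rose by 0.31 ± 0.07 (adjusted p = 0.0402), and averaged over its probe sets stood at 0.30 (adjusted p = 0.0816). Palm3, of the paralemmin family of membrane-bound proteins, rose by 0.51 ± 0.09 (adjusted p = 0.0188) and had no overlap at any time. Its levels were 3.64 to 4.30 under HFD and 3.15 to 3.75 under ND, close to the filter on dim probe sets at 3.22 log2 units. The trefoil factor Tff3, the orphan receptor Gpr62, the beta-defensin Defb22 and the elongation factor Eef1a2 rose by log2 differences of 0.42, 0.49, 0.49 and 0.36 from mean levels between 3.53 and 3.95. Of the 66 genes that rose, 16 had other tested probe sets, and 17 of these 21 probe sets had the same sign, none of them called.

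**Figure D2:**
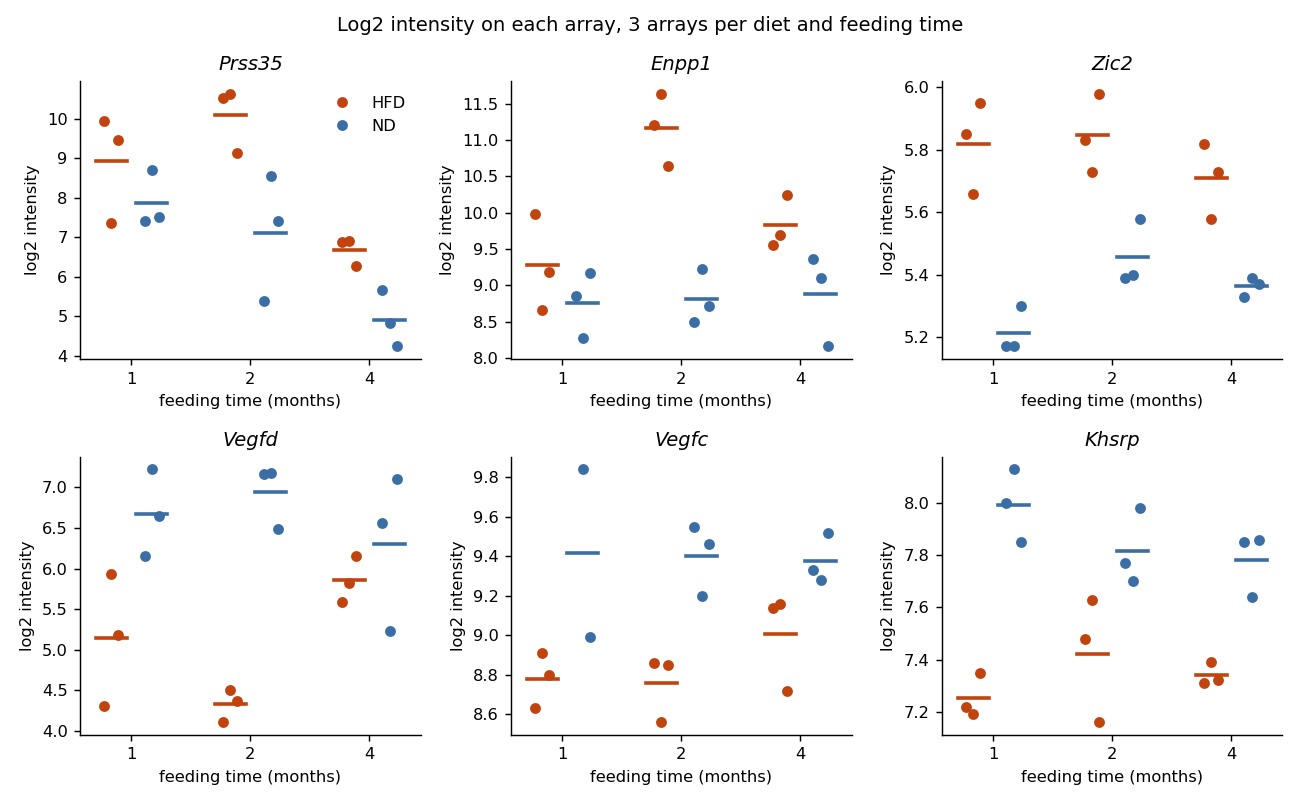
Log2 intensity of 6 genes on each array (points) and group means (bars) against feeding time, HFD left of ND, 3 arrays each. Zic2 and Khsrp show no overlap of the diets at any time, Prss35 and Enpp1 overlap at 1 month, Vegfd overlaps at 4 months, and Vegfc has 2 ND values at 1 month.

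Vegfd, a secreted growth factor for lymphatic and blood vessels, had the largest fall among called genes. It read 4.31, 5.93 and 5.18 under HFD at 1 month, against 6.16, 7.22 and 6.65 under ND. At 2 months it read 4.11, 4.51 and 4.37 under HFD and 7.16, 7.17 and 6.49 under ND, and at 4 months 5.59, 5.82 and 6.15 under HFD and 6.56, 5.23 and 7.10 under ND. The diets were apart at 1 and 2 months and overlapped at 4 months, where ND replicate 2 lay below all HFD arrays. The shared log2 difference was -1.53 ± 0.33 (SE, limma adjusted p = 0.0303), and Vegfd was called in 8 of the 18 fits with 1 array left out.

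Vegfc, which acts on the same lymphatic receptor as Vegfd, fell by 0.54 on the log2 scale (SE 0.11, limma adjusted p = 0.0296). It read 8.63, 8.91 and 8.80 under HFD at 1 month, against 9.84 and 8.99 on the ND arrays with a value. At 2 months it read 8.86, 8.56 and 8.85 under HFD and 9.55, 9.20 and 9.46 under ND, and at 4 months 9.14, 9.16 and 8.72 under HFD and 9.33, 9.28 and 9.52 under ND. No time showed overlap. The call was lost after quantile normalization (-0.49, adjusted p = 0.0606) and in 10 of the 18 fits with 1 array left out. These were the 2 called genes of 17 tested angiogenic factors, of which 24 had been listed, and over all tested genes 1.45% were called. Other members were not called, among them the vessel-stabilizing ligand Angpt1 at -1.28, the peptide ligand Apln at -1.47, Vegfa at 0.60 and endothelin Edn1 at 0.71, each with 1 sign at the 3 times. The list had a median of -0.20, against -0.04 for all tested genes, with 6 members lower (35.3%, against 25.1% of all tested genes) and 4 higher (23.5%, against 13.7%) at all 3 times.

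RNA-binding and splicing proteins were the list with the most called members. Of 36 tested genes, from 41 listed, 5 fell and 0 rose, where 0.874% of all tested genes fell and 0.577% rose. At all 3 times 21 were lower in HFD (58.3%, against 25.1% of all tested genes). The list held 2 called genes after quantile normalization, 3 after cyclic loess and 2 with arrays centred on their medians. In the same order, 65, 74 and 121 of all 11446 tested genes were called. The list median was -0.15, and it was -0.12 after quantile normalization, -0.11 after cyclic loess and -0.10 with arrays centred on their medians, against 0.02 for all tested genes in that last scaling. The list was drawn up with earlier results on Khsrp, Srrm2 and Ddx6 in these arrays known, so its count is not independent evidence. Khsrp, a protein that binds AU-rich elements and promotes RNA decay, read 7.22, 7.19 and 7.35 under HFD at 1 month, against 8.0, 8.13 and 7.85 under ND. The 2-month arrays read 7.48, 7.63 and 7.16 under HFD and 7.77, 7.70 and 7.98 under ND. The values at 4 months were 7.31, 7.39 and 7.32 under HFD and 7.85, 7.64 and 7.86 under ND. Every HFD array lay below every ND array of the study. Its log2 difference was -0.52 ± 0.08 (SE, limma adjusted p = 0.00729).

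Srrm2, a large scaffold protein of nuclear speckles, fell by 0.36 on the log2 scale (SE 0.06, limma adjusted p = 0.0175), with HFD arrays between 9.72 and 10.04 and ND arrays between 10.09 and 10.57. It thus had no overlap even across times. The RNA helicase Ddx6, a repressor of translation in RNA granules, fell by 0.35 (adjusted p = 0.0193), also with all HFD arrays (8.54 to 8.94) below all ND arrays (8.99 to 9.36). Hnrnpu, an abundant nuclear RNA-binding protein, fell by 0.23 (adjusted p = 0.035). The branch point binding protein Sf1 fell by 0.27. Members that were not called included Hnrnpa1 at -0.37 and Srsf1 at -0.26, both negative at each time. Srrm2, Ddx6, Hnrnpu and Khsrp have other probe sets, of which 1 of 1, 1 of 2, 2 of 2 and 1 of 1 had the same sign, and all 4 lost their call when averaged over their probe sets. Khsrp then stood at -0.33 (limma adjusted p = 0.059), Srrm2 at -0.18 (adjusted p = 0.0818), Ddx6 at -0.24 (adjusted p = 0.113) and Hnrnpu at -0.08 (adjusted p = 0.467). Sf1, which has 1 other probe set, stood at -0.21 (adjusted p = 0.0639).

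The next genes are not on that list and were grouped by role after their values were seen, so no theme is read from them. Cwc25, a spliceosome protein of the catalytic step, read 4.67, 6.12 and 5.80 under HFD at 1 month and 6.09, 6.08 and 6.37 under ND. Its 2-month values were 6.44, 4.98 and 5.04 under HFD and 6.37, 6.33 and 6.37 under ND, and at 4 months 4.97, 5.38 and 5.14 under HFD and 6.81, 6.90 and 6.64 under ND. The diets were apart at 4 months alone. HFD 1-month replicate 2 and HFD 2-month replicate 1 lay within the ND range over all times. The log2 difference was -1.05 ± 0.22 (SE, limma adjusted p = 0.0282), and it missed the threshold after quantile normalization (adjusted p = 0.0513). Ddx20 and Gemin4, partners in the SMN complex that assembles spliceosomal ribonucleoproteins, fell by 0.48 and 0.42 on the log2 scale (adjusted p = 0.0248 and 0.0254). Ddx20 had nearly equal differences at the 3 times, -0.48, -0.45 and -0.51. Ddx3x-ps1 fell by 0.44. It is named as a pseudogene, so its probe set may also read the helicase gene it resembles.

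Genes of both directions code for transcription factors, and those described here were likewise grouped after their values were seen. Etv6, an ETS family repressor, read between 5.37 and 5.60 on all HFD arrays and between 5.80 and 6.15 on all ND arrays. Its log2 difference was -0.42 ± 0.06 (SE, limma adjusted p = 0.00729), with -0.49, -0.46 and -0.33 at 1, 2 and 4 months. Zbtb14, a zinc finger repressor, fell by 0.64 (SE 0.11, adjusted p = 0.0164), and its HFD arrays (3.81 to 4.75) lay below its ND arrays (4.78 to 5.19). Tle4, a Groucho family corepressor, fell by 0.51 (adjusted p = 0.0492). It was called in 4 of the 18 fits with 1 array left out. Its call was lost under quantile normalization, cyclic loess and median centring. The zinc finger protein Zfp503 fell by 0.56 (adjusted p = 0.0225). Of its 3 other probe sets 1 had the opposite sign, and averaged Zfp503 stood at -0.24 (adjusted p = 0.0786). Zfp423, known in mouse as a factor that commits stromal cells to the fat lineage, read 6.48, 5.67 and 6.33 under HFD at 1 month and 6.98 and 6.70 under ND. At 2 months the values were 5.43, 5.12 and 5.60 under HFD and 6.26, 6.04 and 6.46 under ND. At 4 months they were 5.72, 6.11 and 5.78 under HFD and 6.66, 5.90 and 6.42 under ND. The diets overlapped at 4 months alone, and the log2 difference was -0.67 ± 0.14 (adjusted p = 0.0285). Its 3 other probe sets did not follow, since 1 had the same sign, and averaged over probe sets Zfp423 stood at -0.05 (adjusted p = 0.851).

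Enzymes and structural genes among the falls included Mthfd1, an enzyme that carries folate-bound carbon units, at -0.45 (limma adjusted p = 0.0386), Coq2, which starts coenzyme Q assembly, at -0.39 (adjusted p = 0.0261), and Sord, sorbitol dehydrogenase, at -0.49 (adjusted p = 0.0479). Wasf2, an activator of branched actin filaments, fell by 0.53 (adjusted p = 0.0211). Haus1, a subunit of the augmin complex of the spindle, fell by 0.47 (adjusted p = 0.0479), and Rnaseh2b, a subunit of ribonuclease H, by 0.37 (adjusted p = 0.0295). The single other probe set of Haus1 had the opposite sign, and averaged over probe sets Haus1 stood at -0.23 (adjusted p = 0.0962) and Sord at -0.43 (adjusted p = 0.0834). Taf1d, of the RNA polymerase I initiation factor, fell by 0.52 with no overlap at any time, and Pdxdc1, a protein with a pyridoxal-dependent decarboxylase domain, fell by 0.82. Pdxdc1 stood at -1.46 at 1 month, at -0.61 at 2 months and at -0.40 at 4 months. Mthfd1, Sord, Haus1, Rnaseh2b and Taf1d each lost their call under quantile normalization, cyclic loess and median centring. With 1 array left out they were called in 7, 4, 3, 8 and 6 of the 18 fits. Coq2 and Wasf2 lost their call after quantile normalization and were called in 14 and 17 of those fits. Pdxdc1 kept its call in these scalings and was called in 11. Of the 100 genes that fell, 45 had other tested probe sets, and 52 of these 71 probe sets had the same sign, with another one called in 5 genes.

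**Figure D3:**
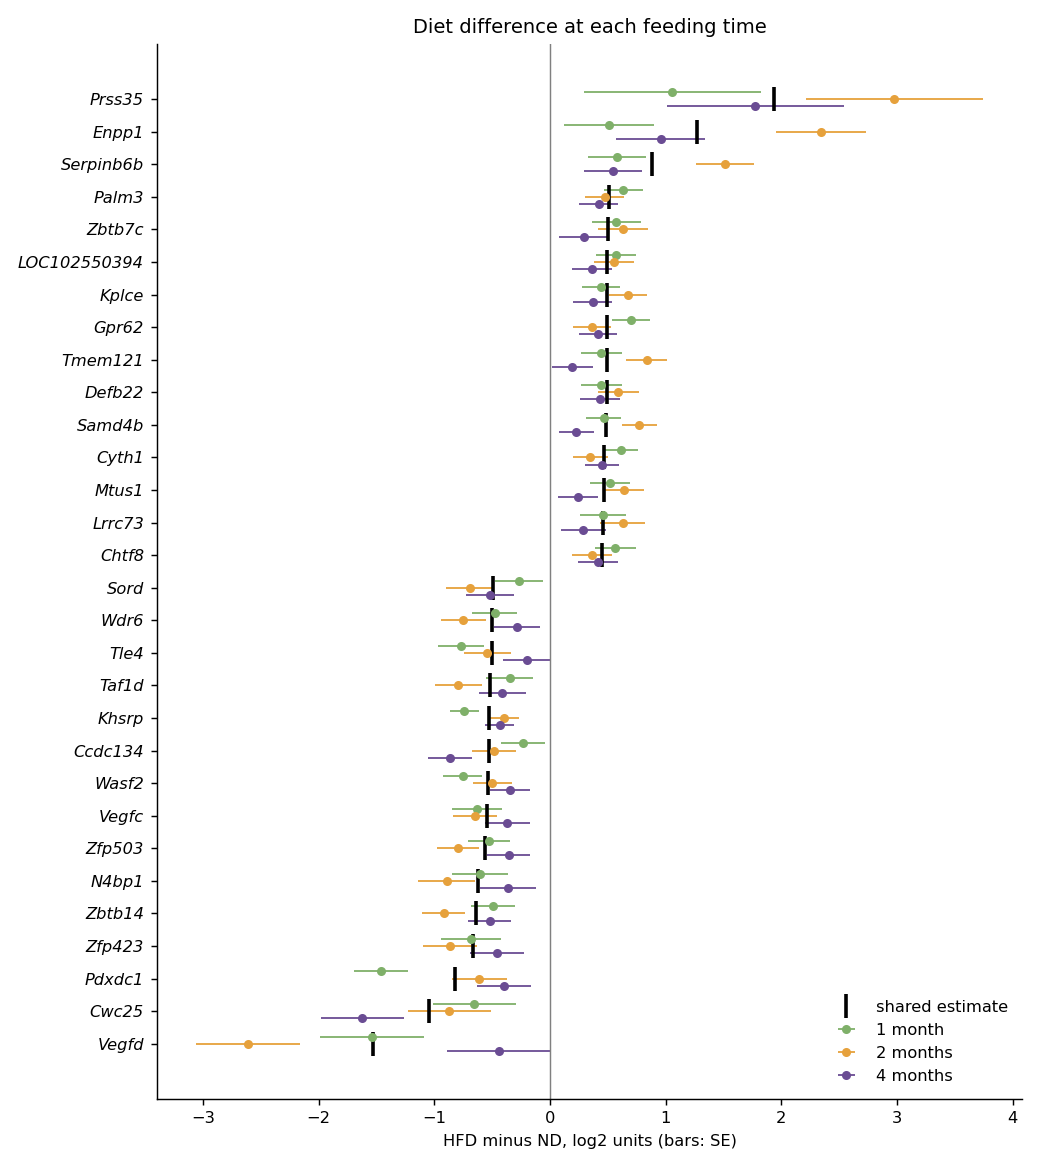
HFD minus ND in log2 units with its SE at 1, 2 and 4 months for the 15 largest rises and 15 largest falls among called genes, with the shared estimate as a black tick. All 30 genes keep 1 sign, which the choice of genes required, and the 2-month value exceeds the shared estimate for Prss35, Enpp1 and Serpinb6b in size.

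The 3 feeding times did not contribute alike to the shared difference. Among the 166 called genes the median absolute difference was 0.40 at 1 month, 0.39 at 2 months and 0.24 at 4 months, against 0.15, 0.20 and 0.11 over all tested genes. The difference was largest at 2 months in 90 genes, at 1 month in 67 and at 4 months in 9, and it was smallest at 4 months in 116. Taken by itself, 2 months had 552 called probe sets (2.54%) and 285 called genes (2.49%), while 1 month and 4 months had 0 called probe sets each in limma, with 2124 and 811 at an unadjusted p under 0.05. Without the 2-month arrays limma called 0 probe sets (lowest adjusted p = 0.143, 2183 at an unadjusted p under 0.05), while the median absolute difference of the 166 genes was 0.319 in that fit, against 0.352 with all arrays. Without the 1-month arrays it also called 0 (lowest adjusted p = 0.169, 3104 unadjusted), and without the 4-month arrays 186. All 166 genes kept their sign without the 2-month arrays, which their 1 direction at 1 and 4 months fixed in advance. They were also called with the 1- and 4-month arrays included, so the median of 0.319 is not independent of that choice. The F test of the diet by time interaction called 0 of 21729 probe sets in limma (lowest adjusted p = 0.132), with 1465 at an unadjusted p under 0.05, and 14 of the called genes were among these. Over all tested probe sets the diet differences at 1 and 2 months correlated at 0.18, those at 1 and 4 months at 0.20 and those at 2 and 4 months at 0.04. These correlations are across probe sets, which are not independent, and the 3 times share no array.

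The genes called at 2 months alone can be followed to the other times, which hold separate arrays. Of 126 that were higher in HFD at 2 months, 79.4% were also higher at 1 month, where 37.4% of all tested genes were, and 50% were higher at 4 months, against 47.5% of all. For 159 that were lower at 2 months, 92.5% were lower at 1 month, against 62.5% of all tested genes, and 52.8% at 4 months, against 52.5%. The shares thus lay above those of all genes at 1 month and close to them at 4 months. The dependence of the median difference on probe signal was present at each of the 3 times, and its part in these shares was not tested. Of these 285 genes, 16 that were higher and 15 that were lower were also called over all feeding times.

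**Figure D4:**
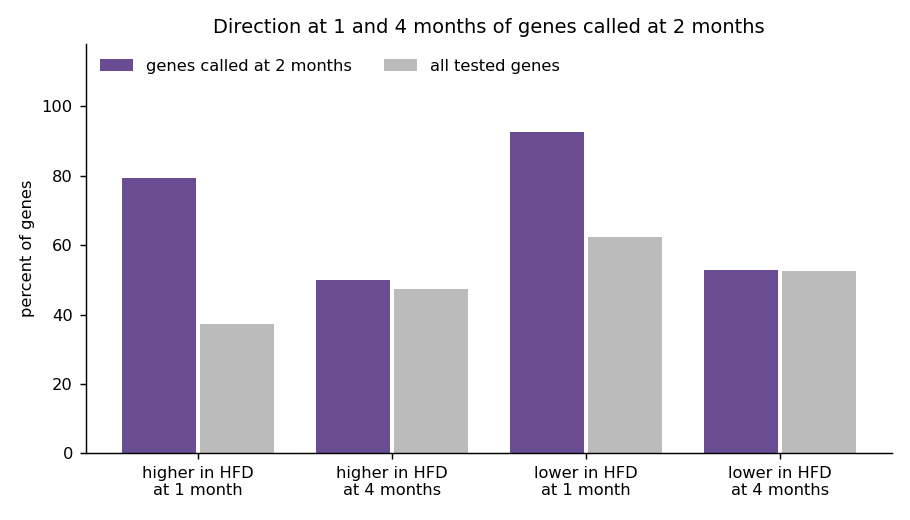
Percent of genes called at 2 months (purple) and of all tested genes (grey) that had the stated direction at 1 or 4 months. The bars of called genes stand at 79.4% and 92.5% at 1 month, above the grey bars of 37.4% and 62.5%, and at 50% and 52.8% at 4 months, next to grey bars of 47.5% and 52.5%.

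Cell cycle genes shared 1 direction without a called member. All 46 tested genes of DNA replication and mitosis, from 52 listed, had a negative shared difference with a median of -0.49, and 35 were lower in HFD at all 3 times (76.1%, against 25.1% of all tested genes). At an unadjusted p under 0.05 there were 21 of the 46, against 2330 of 11446 over all tested genes. The spindle checkpoint kinase Ttk stood at -0.85 ± 0.27 (limma adjusted p = 0.0943), with -0.58, -1.02 and -0.94 at 1, 2 and 4 months. Ccnb2, a mitotic cyclin, stood at -0.80 (adjusted p = 0.0945). The list medians were -0.12, -0.74 and -0.63 at the 3 times, and cultures differed widely, with Ccnb2 between 6.43 and 8.45 under HFD and between 7.64 and 9.47 under ND. The shared median was -0.44 after quantile normalization and with arrays centred on their medians, and -0.34 without the 2-month arrays. With the interquartile range of each array as a covariate it was -0.245, and 7 of the 46 genes were positive. A fit with the cell cycle list mean as a covariate called 36 probe sets over all feeding times. In the DNA repair list 1 of 21 tested genes fell, where 0.874% of all tested genes did. It was Xrcc5, a subunit of the Ku complex that binds broken DNA ends, at -0.33 (adjusted p = 0.0488). Averaged over its probe sets Xrcc5 was not called, at -0.25 (adjusted p = 0.0579).

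Mitochondrial and proteasome subunits showed small differences with mostly 1 sign. Over all tested genes 59.7% were negative, 25.1% were lower at all 3 times and 20.4% had an unadjusted p under 0.05. Of 28 tested genes of oxidative phosphorylation 27 were negative (96.4%), 18 were lower at all 3 times (64.3%) and 0 were called. An unadjusted p under 0.05 was reached by 10 of them (35.7%). Ndufs1, a core subunit of respiratory complex I, stood at -0.22 (limma adjusted p = 0.0753). Of 28 proteasome genes 26 were negative, 17 were lower at all 3 times (60.7%) and 0 were called, again with 10 at an unadjusted p under 0.05 and with Psma7, an alpha subunit of the core, at -0.18 (adjusted p = 0.108). These bright genes are in the range of signal where the median of all probe sets was itself negative. Their list medians were -0.10 and -0.10, moving to -0.06 and -0.09 after quantile normalization and to -0.04 and -0.05 with arrays centred on their medians. With that centring 7 of 28 genes in each list were positive, and the median of all tested genes was 0.02.

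The medians of the lipid lists differed between times. All 20 tested genes of cholesterol synthesis and uptake had a negative shared difference, 0 were called (8 at an unadjusted p under 0.05), and 7 were lower at all 3 times (35%, against 25.1% of all tested genes). The median was -0.35 over all times, with -0.19, -0.94 and 0.12 at 1, 2 and 4 months, against -0.06, -0.04 and -0.01 for all tested genes. It was -0.01 without the 2-month arrays, and the difference of the list between times was not tested. Sc5d, an enzyme of the last steps of cholesterol synthesis, stood at -0.50 (limma adjusted p = 0.0684). Of 23 genes of fatty acid and triglyceride synthesis 9 were lower at all 3 times (39.1%) and 0 were called (3 unadjusted), with medians of -0.11, -0.47 and -0.03 at the 3 times. The desaturase Scd stood at -1.90 at 2 months, against -0.22 and -0.10 at 1 and 4 months. Among 20 tested adipocyte genes the fall of Zfp423 was the only call, and the fatty acid carrier Fabp4 stood at -2.38, -2.40 and -0.35 at 1, 2 and 4 months. In the hypoxia list, where Plod2 rose, 1 of 22 genes was lower at all 3 times (4.55%) and 3 were higher (13.6%). Over all tested genes these shares were 25.1% and 13.7%, and 1.45% were called.

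Developmental regulators went both ways. Of 28 tested homeobox and positional factors Zic2 and Tbx2 rose and Meis2, a homeobox cofactor, fell by 0.44 (limma adjusted p = 0.0457). Over all tested genes 1.45% were called. Meis2 was called in 4 of the 18 fits with 1 array left out. It lost its call under quantile normalization, cyclic loess and median centring. At all 3 times 8 of the 28 were higher and 8 lower (28.6% each, against 13.7% and 25.1% of all tested genes). Prrx1, a homeobox factor of limb and stromal mesenchyme, stood at -0.40 (adjusted p = 0.0634). In the Notch and Hedgehog list Notch4 and Heyl rose among 12 tested genes, and 0 members were called after quantile normalization or cyclic loess. At all 3 times 4 were higher (33.3%, against 13.7% of all tested genes) and 0 lower (against 25.1%). Of 37 genes of TGF-beta and BMP signalling Bmpr1a, a type I receptor for bone morphogenetic proteins, was the single call and fell by 0.24 (adjusted p = 0.0469). Bmpr1a was called in 3 of the 18 fits with 1 array left out. It lost its call after quantile normalization (limma adjusted p = 0.177), cyclic loess (adjusted p = 0.141) and median centring. Enpp1 was the single call among 14 osteoblast and bone matrix genes, where the collagen chain Col1a1 stood at 0.17 at each time (adjusted p = 0.128).

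Matrix, stress and immune lists held no called gene, and at an unadjusted p under 0.05 they had 10 of 50 collagen and matrix genes, 5 of 30 of the unfolded protein response, 11 of 25 of the interferon response and 4 of 18 complement and acute phase genes. These are 20%, 16.7%, 44% and 22.2%, against 20.4% of all tested genes. Of 50 collagen and matrix genes 12 were higher (24%, against 13.7% of all tested genes) and 10 lower (20%, against 25.1%) at all 3 times, with the proteoglycan Vcan at -0.75 (limma adjusted p = 0.0831) and fibronectin Fn1 at 0.14 (adjusted p = 0.123). In the unfolded protein response list 20 of 30 genes had 1 direction at the 3 times, 9 higher (30%) and 11 lower (36.7%). For interferon response genes 11 of 25 were lower (44%) and 3 higher (12%) at all 3 times, with the transcription factor Irf1 at -0.44 (adjusted p = 0.0513). Complement and acute phase genes had a median of -0.45 over all times, with 0.07, -1.64 and 0.14 at 1, 2 and 4 months and 0.17 without the 2-month arrays. The receptor chain Il6st, shared by cytokines of the interleukin-6 family, stood at -0.71 (adjusted p = 0.0513). None of the 26 tested macrophage genes, from 29 listed, had 1 direction at the 3 times or an unadjusted p under 0.05, and their medians were 1.71, -1.58 and 0.41. In a fit that took the macrophage list mean as a covariate, all 381 probe sets were called again among 1080. Of 18 stromal surface and niche markers 2 were higher (11.1%, against 13.7% of all tested genes) and 8 lower (44.4%, against 25.1%) at all 3 times. Of these 18 markers 0 were called, and 6 had an unadjusted p under 0.05 (33.3%, against 20.4%).

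**Figure D5:**
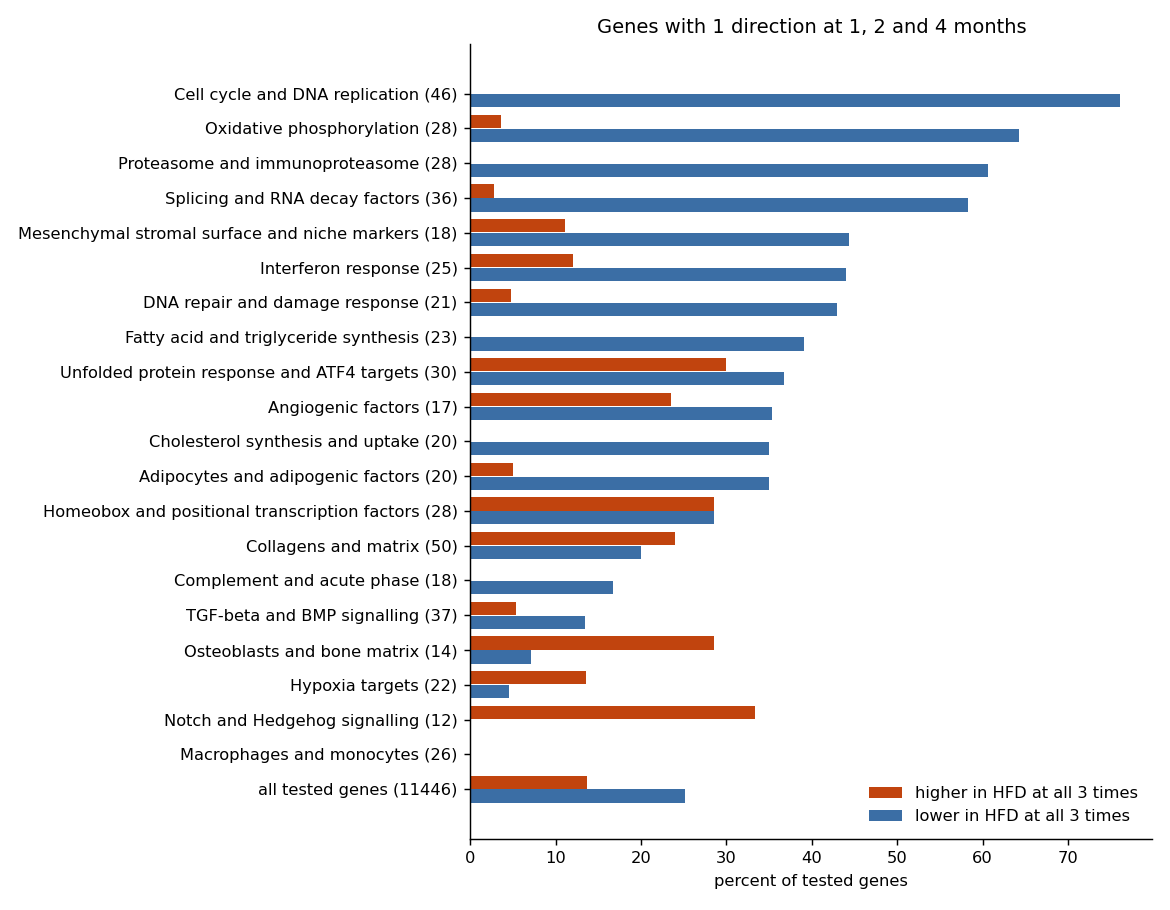
Percent of tested genes (number in parentheses) that were higher (orange) or lower (blue) in HFD at all 3 feeding times, for 20 gene lists and for all tested genes in the bottom row. Cell cycle genes reach 76.1% lower, against 25.1% of all tested genes, and the macrophage list has neither.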

How the data were processed

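The deposited values are 1 linear intensity per probe set and array, summarised by the authors with RMA per the submitters' processing notes, version not stated. Log2 was taken of each intensity with no added constant and no further scaling. The column of ND 1-month replicate 1 was moved down by its 1343 trailing empty cells, which took its correlation with the average of the remaining arrays to 0.990, against 0.0909 before. Of 31099 probe sets, 57 are controls and were not tested. A filter removed the dimmest 30% of the remainder (mean log2 of 3.22 or less), which left 21729. The platform annotation gave 20832 probe sets 1 symbol, 436 several and 9831 none, and RefSeq (GRCr8) held the genes of 20764.

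limma 3.58.1 in R 4.3.3 fitted diet and feeding time with lmFit and eBayes (14 residual degrees of freedom, two-sided tests, Benjamini-Hochberg over all tested probe sets), and the fit was tested on simulated data. Differences at a time come from a fit with 1 mean per group. The text names the 15 largest rises and falls among called genes of 1 direction, 8 further in each direction with the largest weakest difference, up to 4 called or 3 other genes per described list, the 4 lowest interaction p-values and the marker checks, printing fewer where space is short. Genes outside this rule are named by fold change alone or as called in every fit, and were chosen after their values were seen. The members and the 52 gene lists were chosen with earlier results of these data known. The number of arrays limits the precision. Separate animals are stated only as 3 per group, so p-values measure the spread between arrays, which may be technical. No depth applies to intensities.

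The main fit took the arrays as unpaired. Residuals of same-numbered HFD and ND arrays correlated between -0.571 and 0.44 over the 9 pairs. With 3 arrays per group these values cannot decide whether the replicate numbers pair the arrays. Alternatives were the filter, scaling, variance model, array weights, covariates, the column as deposited, averaged probe sets, and leaving out arrays or times. Cyclic loess and the array spread as a covariate were chosen after seeing the data.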

Additional observations from a re-analysis of the deposited data

Results flagged for a closer look

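Single arrays stood apart from the other arrays of their diet, taken over all 3 feeding times, in 17 of 212 sets of values checked by Dixon's test at the 95% level, where chance flags about 1 in 20. ND 4-month replicate 2 accounts for several. It read 7.01 for Wdr6, 10.07 for the proteasome subunit Psma2, 10.11, 12.12 and 10.94 for the endoplasmic reticulum chaperones Dnajc3, Hsp90b1 and Pdia4, and 9.16 for Prrx1, and its mean of the stromal marker list was -0.25. Among called genes, Pdxdc1 read 4.55 on HFD 1-month replicate 2, Lrrc73 read 4.94 on ND 2-month replicate 2 and Meis2 read 6.06 on ND 2-month replicate 1. HFD 2-month replicate 1 was low in the macrophage genes Lyz2, at 10.64, and Cd68, at 5.21. HFD 4-month replicate 3 read 5.34 for Cd74 and HFD 2-month replicate 2 read 6.42 for Vcam1. HFD 1-month replicate 3 read 4.58 for Ifit1, ND 4-month replicate 3 read 8.70 for Stat3 and ND 1-month replicate 1 read 6.68 for Eng.

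In 2 of 101 named genes every HFD array lay above every ND array at 1 time and below at another. The share of all tested genes that do so was not counted. At 1, 2 and 4 months the diets did not overlap for 16.9%, 25.5% and 8.04% of all tested genes. The named genes include the 4 with the lowest interaction p-values, a choice that favours genes with opposite directions. Ccdc71l had a log2 difference of 0.97 at 2 months and -0.53 at 4 months (limma interaction, adjusted p = 0.132). Rbm11 stood at -0.33 at 1 month, 0.89 at 2 months and -0.37 at 4 months (adjusted p = 0.215). Neither interaction passed the threshold.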

How the results depend on the processing

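The count of 381 called probe sets stayed within 1.5 times under no filter, a stricter filter, median centring, an intensity trend, robust moderation, complete probe sets and without probe sets open to cross-hybridization. The set of calls changed more than the count under median centring. That fit kept 218 of the 381 and called 206 higher and 79 lower. Of the called genes, 65 of the 66 that rose and 24 of the 100 that fell were called again there. The count was 163 with quantile normalization, 188 with cyclic loess and 0 with the array spread as a covariate. With probe sets averaged 116 genes were called, against 166. Array weights gave 694 (693 with 1 direction), 1 mean per diet and time 612 (575), the macrophage list as a covariate 1080 (1067) and the cell cycle list as a covariate 36. Without the 1-, 2- or 4-month arrays it was 0, 0 and 186, and with replicate 1 of the 1-month ND group and replicate 3 of the 2-month ND group both dropped it was 40. A fit that took same-numbered HFD and ND arrays of each time as a block called 2, and whether the numbers pair the arrays is not known. It leaves fewer residual degrees of freedom than the main fit. Leaving out 1 array gave 84 to 963 called probe sets and 84 to 956 with 1 direction. Counts moved by over 1.5 times without ND 1-month replicates 1 (194) and 2 (110), HFD 1-month replicates 1 (139) and 3 (84), ND 2-month replicates 1 (126), 2 (98) and 3 (217), HFD 2-month replicates 1 (152), 2 (182) and 3 (158), ND 4-month replicates 1 (120), 2 (963) and 3 (613), and HFD 4-month replicate 1 (173, 172 with 1 direction). The interaction gave 0 calls in every fit run except 32 without HFD 2-month replicate 3. With the ND 1-month replicate 1 column as deposited 0 probe sets were called. Outside that setting 0 of the 166 called genes changed sign in the fits that tested them. For the fits without 1 feeding time this follows from their 1 direction at the 3 times. With the column as deposited 44 changed sign. Defb22 stood at -0.107, Tff3 at -0.079, Lypd3 at -0.184, Vegfc at 0.181, Taf1d at 0.175, Mthfd1 at 0.172, Srrm2 at 0.516, Ddx6 at 0.074 and Hnrnpu at 0.092, since the values of the array then belong to other probe sets. For the other shifts the cause was not tested. Signal near the dim filter limits the genes below 5 log2 units.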

Other observations

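Other called falls act in RNA processing and ribosome assembly. They were picked from the called genes after their values were seen, so no count or share is read from them. The cap-binding subunit Ncbp2 fell by 0.32 on the log2 scale, the nuclear poly(A)-binding protein Pabpn1 by 0.22, the spliceosome proteins Sf3b2, Snrpb2 and Rbm10 by 0.24, 0.21 and 0.23, and the helicase Ddx46 by 0.35. The Integrator endonuclease subunit Ints11 fell by 0.29 and the uridylyltransferase Tut1 by 0.28. The nucleolar GTPases Gnl2 and Gnl3 fell by 0.32 and 0.20, and the cytoplasmic ribosome maturation factor Lsg1 by 0.25. Ncbp2 was called in all 18 fits with 1 array left out. Sf3b2 and Gnl2 were called in 12 of these fits and Ints11 in 8. Snrpb2, Rbm10, Ddx46, Gnl3 and Lsg1 were called in 6, and Pabpn1 and Tut1 in 5. Of the genes in this paragraph, Ncbp2 alone kept its call after quantile normalization and after cyclic loess. Averaged over their probe sets Ncbp2, Pabpn1 and Lsg1 were not called, at -0.12, -0.15 and -0.03.

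Several other called rises are genes known from nerve cells and ion channels, chosen in the same way. The oxygen-binding protein Ngb rose by 0.40, the somatostatin receptor Sstr1 by 0.39, the potassium channel Kcna1 by 0.35, the calcium channel subunit Cacna1a by 0.28, the tubulin Tubb4a by 0.34 and the homeobox factor Vax2 by 0.29. The fibrillar collagen chain Col11a2 rose by 0.35. Mean levels of the genes in this paragraph ran from 3.69 log2 units in Kcna1 to 5.99 in Ngb. With 1 array left out, Ngb and Sstr1 were called in all 18 fits, Tubb4a in 17 and Cacna1a in 16. Col11a2 was called in 7 of these fits, Vax2 in 6 and Kcna1 in 4. Kcna1 and Col11a2 lost their call after quantile normalization, and the others kept it. Averaged over probe sets Sstr1 stood at 0.21 and Tubb4a at 0.28, neither of them called.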
